A study of Saccharomyces cerevisiae with 210 samples.

Results

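Trehalose metabolism in the budding yeast Saccharomyces cerevisiae was followed through 7 genes, TPS1, TPS2, TPS3, TSL1, NTH1, NTH2 and ATH1. Their systematic names are YBR126C for TPS1, YDR074W for TPS2, YMR261C for TPS3, YML100W for TSL1, YDR001C for NTH1, YBR001C for NTH2 and YPR026W for ATH1. They were chosen by name, and each had 1 probe set that named it and no other gene, so all 7 of 7 were measured among the 5656 genes tested. No genome build is given for the array, and coordinates are left out for that reason. RNA was measured on Affymetrix Yeast Genome S98 arrays in the strain background BY4743, as 6 mutants (yap1, glr1, grx1, grx2, gpx1 and gpx2) and wild type. The labels give the mutated gene but not the allele. Per genotype, 3 batch cultures in exponential growth received 0.19 mM CHP, read here as cumene hydroperoxide because the labels use only the abbreviation, and 3 cultures received none. Each culture was sampled at 0 min, ahead of the oxidant, and again after 3, 6 and 12 min and lastly after 20 min, which gave 210 arrays from 42 cultures in 70 groups of 3. All strains grew as stirred and aerated cultures in fermentors, so each replicate was a culture, and its 5 arrays were repeated samples of it. BY4743 is a diploid, and cells within a culture were pooled. Fewer cells that carry an RNA and less of that RNA per cell therefore cannot be told apart.

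Trehalose is a disaccharide of glucose that yeast makes in stress and in slow growth, and it protects proteins and membranes. Tps1 joins glucose 6-phosphate and UDP-glucose to trehalose 6-phosphate, and Tps2 removes the phosphate. Tps3 and Tsl1 are related, largely regulatory subunits that sit with Tps1 and Tps2 in a single complex. The neutral trehalase Nth1 splits trehalose in the cytosol and is switched on by protein kinase A and 14-3-3 proteins. Nth2 is its close relative, and Ath1 is the acid trehalase. Yap1 is a transcription factor that oxidants activate, GLR1 encodes glutathione reductase, GPX1 and GPX2 encode peroxidases of the glutathione peroxidase family, and GRX1 and GRX2 encode glutaredoxins.

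The mutants carried the RNA pattern of their labels. In each mutant the signal of its own gene lay below the wild-type signal in all 30 arrays, with GLR1 at 3.35 to 5.13 in glr1 against 8.96 to 10.24 in wild type, and the closest pair GPX1 at 3.87 to 4.51 in gpx1 against 4.85 to 6.21 in wild type. Of the genes that a diploid represses, 8 of 11 had a mean signal below the 15th percentile of all genes, with MFA2 at 65.7 as the highest, and so did 4 of 6 sporulation genes. In 1 array the label and the signal disagreed. The 0 min array of wild-type CHP replicate 1 had 10.99 for SRX1, a gene that peroxides induce, against 5.77 to 7.28 in the other 41 arrays taken at 0 min. Arrays that lay farthest from the mean of their group were CHP replicate 2 of grx2 at 20 min, control replicate 1 of yap1 at 0 min and control replicate 3 of glr1 at 20 min.

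Values are log2 signals, and a response is the log2 difference of CHP cultures minus control cultures at the same time. Each response had 3 cultures in each arm and was tested in a fit over all genes (limma), with p-values adjusted over all of them and a threshold of 0.05. The fit shares 1 estimate of the spread per gene, so the standard error of a response was the same in every genotype. It was 0.20 for TPS1, 0.22 for TPS2, 0.14 for TPS3, 0.30 for TSL1, 0.19 for NTH1, 0.15 for NTH2 and 0.17 for ATH1. The spread itself differed, with an SD of TSL1 in control cultures at 0 min of 1.43 in grx2 and 0.07 in grx1. In fits on 1 genotype alone, calls moved both ways. ATH1 in grx2 at 20 min went from adjusted p 0.0045 to 0.1, and TSL1 in grx1 at 6 min from 0.303 to 6.48e-06. A gene is said to have risen or fallen where it passed this threshold. Values of different genes come from different probes and are not compared as amounts. NTH1 with NTH2 and TPS3 with TSL1 are related in sequence, and binding of RNA to the probes of the relative was not tested.

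Over the 7 genotypes and 4 times after CHP, 74 of 196 responses of the 7 genes were higher and 7 were lower, where 10.9% were higher and 13.1% lower over all genes. In yap1 4 of 28 were higher and 6 were lower, where 9.61% were higher and 12.5% lower over all genes. The other 6 genotypes held 70 of 168 higher and 1 lower, and by genotype 8.03% to 15% were higher and 11% to 17% lower over all genes. At 3 min 0 of 49 responses were higher and 0 were lower, where 0.942% of all genes were higher and 0.139% lower. At 6 min 1 of 49 was higher, against 5.69% of all genes, and 1 was lower, against 5.73%. The genes of the pathway therefore passed the threshold almost entirely at 12 and 20 min.

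**Figure D1:**
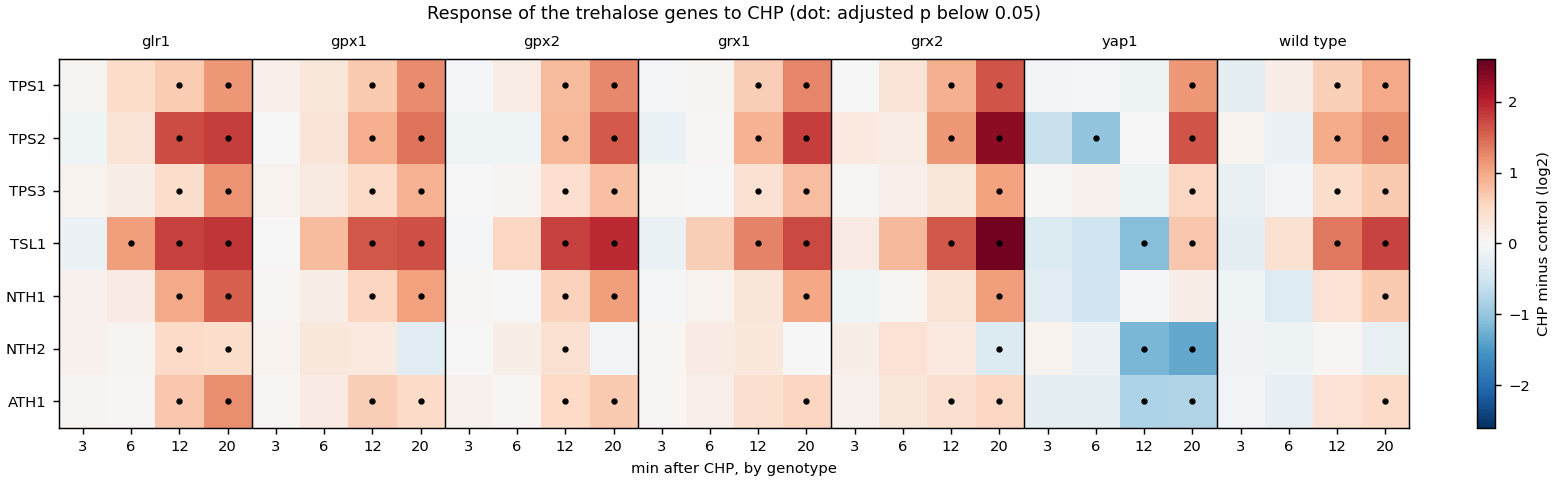
Response of the 7 genes to CHP in the 6 mutants and wild type, as CHP minus control in log2 units (colour), with 1 column per time in min and a dot where the adjusted p was below 0.05. The columns for 12 and 20 min are red in most rows, apart from NTH2, and the yap1 block holds the deepest blue cells, with TSL1 at -1.10 at 12 min and NTH2 at -1.33 at 20 min.

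In wild type, the 4 genes of the synthesis complex had risen at 12 min, and their responses had larger values at 20 min. TSL1 read 10.75, 10.37 and 9.89 in CHP cultures at 12 min, against 8.95, 8.70 and 9.23 in control cultures, a response of 1.38 (adjusted p 8.04e-05). At 20 min it read 11.10, 10.66 and 10.93 in CHP cultures, against 9.38, 8.51 and 9.51 in control cultures, a response of 1.77 or 3.40-fold (adjusted p 2.39e-07). The arms did not overlap at either time, while at 6 min they did, with 9.24, 9.12 and 9.05 in CHP cultures against 8.49, 8.50 and 9.25 in control cultures. TSL1 had the largest response of the 7 genes in wild type at both times.

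The phosphatase gene TPS2 read 10.29, 10.13 and 9.78 in CHP cultures at 12 min, against 9.34, 8.67 and 9.29 in control cultures (response 0.96, adjusted p 0.000176). At 20 min it read 10.90, 10.37 and 10.22 in CHP cultures, against 9.41, 9.09 and 9.35 in control cultures (1.21, 2.31-fold, adjusted p 1.36e-06). All CHP cultures lay above all control cultures at both times. The synthase gene TPS1 read 10.99, 10.49 and 10.73 in CHP cultures at 20 min, against 9.57, 9.58 and 10.09 in control cultures, a 1.99-fold response (adjusted p 1.54e-05). TPS3 read 9.50, 9.29 and 8.90 in CHP cultures at 20 min, against 8.73, 8.18 and 8.72 in control cultures (0.69, 1.61-fold, adjusted p 2.89e-05). These 2 genes had also risen at 12 min, TPS1 by 0.62 (adjusted p 0.0114) and TPS3 by 0.46 (adjusted p 0.0087).

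The trehalase genes were split in wild type. NTH1 rose at 20 min, with 9.33, 8.94 and 8.64 in CHP cultures against 8.40, 8.30 and 8.13 in control cultures (0.69, adjusted p 0.00127). ATH1 rose as well, with 7.23, 7.09 and 7.15 in CHP cultures against 6.67, 6.57 and 6.73 in control cultures (0.50, adjusted p 0.0145). In neither gene did the arms overlap. NTH2 read 8.47, 7.89 and 8.04 in CHP cultures, against 8.55, 8.33 and 8.10 in control cultures, and its arms overlapped (-0.19, adjusted p 0.339). At 12 min the responses were 0.37 for NTH1, 0.06 for NTH2 and 0.38 for ATH1, none past the threshold.

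In wild type 4 of the 7 genes were higher at 12 min, where 10.7% of all genes were, and 6 of 7 at 20 min, against 16.7% of all genes. The median response of the 7 genes was 0.46 at 12 min and 0.69 at 20 min, beside -0.09 and -0.04 for all genes. At 20 min TPS1, TPS2, TSL1 and NTH1 stayed past the threshold in all 14 alternative settings run. Without CHP replicate 1, whose 0 min array had the high SRX1 signal, TPS1 and TPS3 at 12 min (0.48 and 0.37, adjusted p 0.097 and 0.0706) and ATH1 at 20 min (0.47, adjusted p 0.0516) no longer passed. Leaving out control replicate 1 ended the call of TPS1 at 12 min as well, and control replicate 2 that of ATH1 at 20 min (0.52 and 0.46, adjusted p 0.0761 and 0.0617). With the arm difference at 0 min subtracted, TPS1 (0.60, adjusted p 0.158), TPS2 (0.77, adjusted p 0.0807) and TPS3 (0.27, adjusted p 0.448) at 12 min did not pass. Nor did TPS3 at 20 min (0.50, adjusted p 0.0574).

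**Figure D2:**
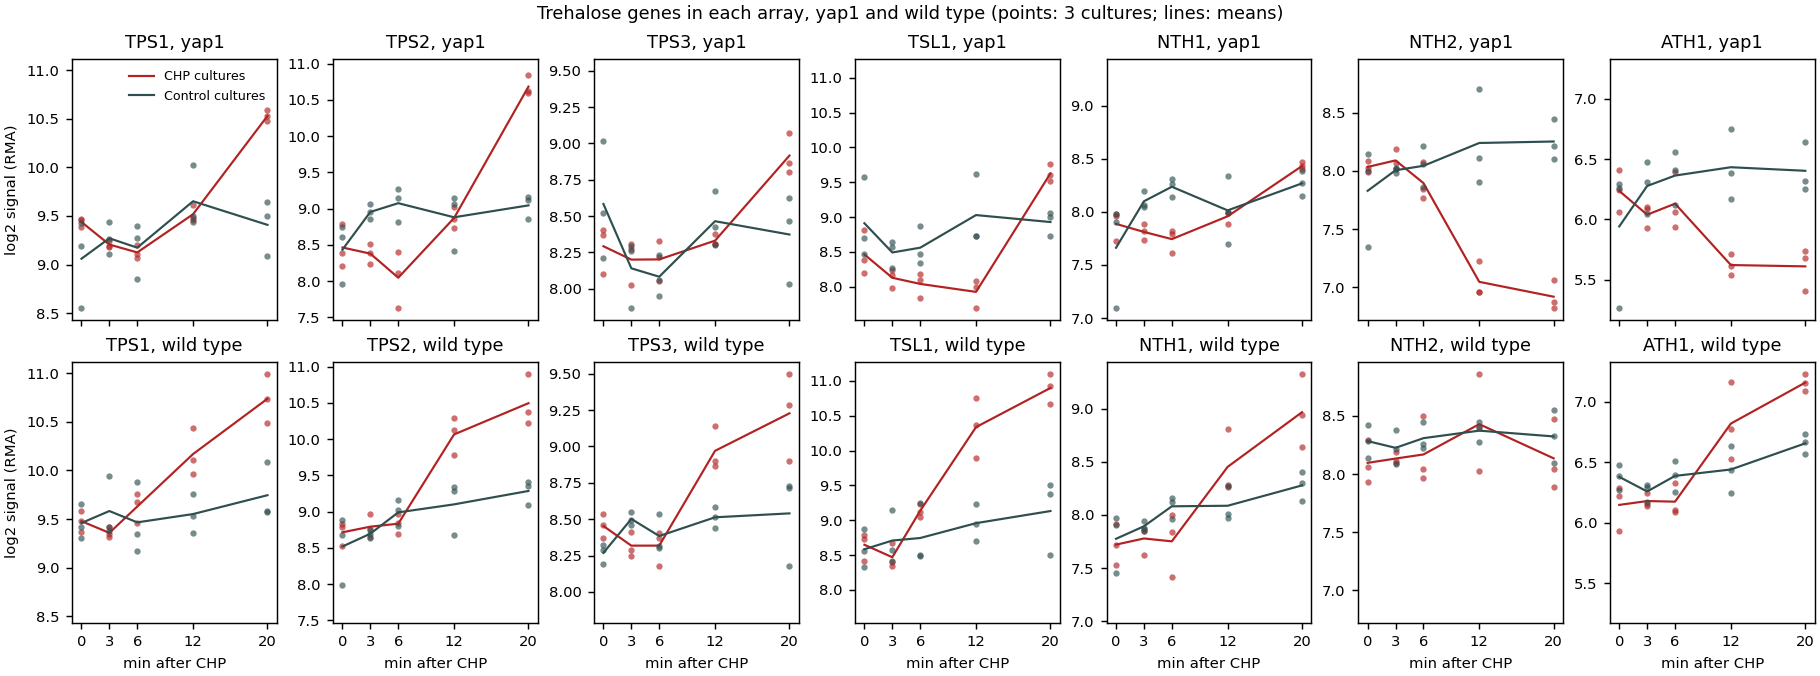
Signal of the 7 genes in every array of yap1 (top) and wild type (bottom) against time after CHP in min, in log2 units, with 1 point per culture and lines through the means of 3 CHP cultures (red) and 3 control cultures (dark). The red and dark lines of wild type part at 12 min for TPS1, TPS2, TPS3 and TSL1, while in yap1 TSL1, NTH2 and ATH1 lie below the control line at 12 min.

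The genes of the synthesis complex had also risen at 20 min in the 5 mutants other than yap1. There the response of TSL1 over the 5 mutants ran from 1.67 in gpx1 to 2.52 in grx2, and that of TPS2 from 1.40 in gpx1 to 2.33 in grx2. For TPS1 the range was 1.14 to 1.64 and for TPS3 0.78 to 1.18. All of these passed the threshold, in 5 of 5 mutants for each of the 4 genes, where 22.7% to 29.3% of all genes were higher. CHP and control cultures did not overlap in any of them. Overlap of the arms was not counted over all genes, so its absence does not set these genes apart. TSL1 had a median signal of 10.75 over the 15 CHP arrays of the 5 mutants at 20 min (10.61 to 11.46), against 8.92 over the 15 control arrays (7.94 to 10.42).

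NTH1 rose in all 5 of these mutants at 20 min, by 1.00 to 1.55, and ATH1 by 0.50 to 1.21. The arms of ATH1 overlapped in grx2, where its value without CHP replicate 3 was 0.31 (adjusted p 0.137). In gpx1 the ATH1 call was kept in 11 of 14 other settings. For NTH1 the median was 9.17 in CHP arrays (8.46 to 9.96), against 7.97 in control arrays (7.48 to 9.04). NTH2 had responses on both sides of 0. Its value was 0.46 in glr1 (adjusted p 0.0047), -0.35 in grx2 (adjusted p 0.0324), -0.28 in gpx1, -0.08 in gpx2 and 0.00 in grx1. At 12 min NTH2 had risen in glr1 (0.50, adjusted p 0.0034) and in gpx2 (0.40, adjusted p 0.0255), with 8.42, 8.36 and 8.34 in CHP cultures of gpx2 against 7.93, 7.98 and 8.00 in its control cultures. The gpx2 call was kept in 7 of 14 other settings, with values of 0.31 to 0.46. That of glr1 at 20 min was kept in 11 of 14, and it was lost under quantile normalization (0.24, adjusted p 0.12) and without control replicate 2 of glr1 (0.37, adjusted p 0.0528).

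Counted by mutant at 12 min, 7 of the 7 genes were higher in glr1 (19% of all genes), 7 in gpx2 (14.3%), 6 in gpx1 (13.8%), 4 in grx2 (16.7%) and 4 in grx1 (12.2%). The 4 of grx2 include ATH1 (0.41, adjusted p 0.0489), whose arms overlapped and whose call was kept in 7 of 15 other settings. In grx1 ATH1 had almost the same value (0.41, adjusted p 0.063) and passed in 4 other settings, the replicate block among them (adjusted p 0.0481). With the arm difference at 0 min subtracted, TPS1, TPS2 and TPS3 at 12 min passed in neither gpx1 nor grx1. Their adjusted p was 0.183 to 0.25 in gpx1 and 0.105 to 0.224 in grx1. NTH1 and ATH1 in gpx1 did not pass either (adjusted p 0.297 and 0.19). In glr1 this subtraction ended the calls of TPS1, TPS3 and NTH2 (adjusted p 0.206, 0.121 and 0.129). In gpx2 it ended those of TPS3, NTH1, NTH2 and ATH1 (adjusted p 0.346, 0.0624, 0.23 and 0.159). The 12 min call of TPS1 in glr1 was kept in 10 of 14 other settings, and that of TPS3 in gpx2 in 9 of 14. At 20 min all 7 were higher in glr1 (29.3% of all genes), and 6 of 7 in grx2 (26.1%), gpx2 (24%), gpx1 (22.8%) and grx1 (22.7%). The only fall among these 5 mutants was NTH2 in grx2 at 20 min, where 39.3% of all genes fell. It read 7.59, 7.32 and 8.01 in CHP cultures, against 7.85, 8.09 and 8.02 in control cultures, so the arms overlapped. That call was kept in 7 of 15 other settings, with values of -0.53 to -0.16, and without CHP replicate 2 the value was -0.18 (adjusted p 0.347).

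At 6 min TSL1 passed the threshold in glr1. It read 9.82, 9.83 and 9.30 in CHP cultures, against 7.93, 8.55 and 9.19 in control cultures (1.09, adjusted p 0.0034, and past the threshold in 12 of 14 other settings). Without control replicate 1 it was 0.78 (adjusted p 0.0839). The arms did not overlap, although the third culture of each came close. TSL1 at 6 min was 0.81 in gpx1, 0.84 in grx2, 0.63 in grx1, 0.54 in gpx2 and 0.39 in wild type, none past the threshold. The value in grx2 lay just outside (adjusted p 0.0526) and passed in other settings, among them culture as a random block (adjusted p 0.0488) and the replicate block (adjusted p 0.0284). Its arms overlapped, while those of gpx1, gpx2 and grx1 did not. In fits on the genotype alone TSL1 at 6 min passed in gpx1 (adjusted p 0.00053), gpx2 (adjusted p 0.0185) and grx1 (adjusted p 6.48e-06). TPS1 in glr1 at 6 min was 0.47 (adjusted p 0.076), and 0.76 without control replicate 3 (adjusted p 0.003).

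**Figure D3:**
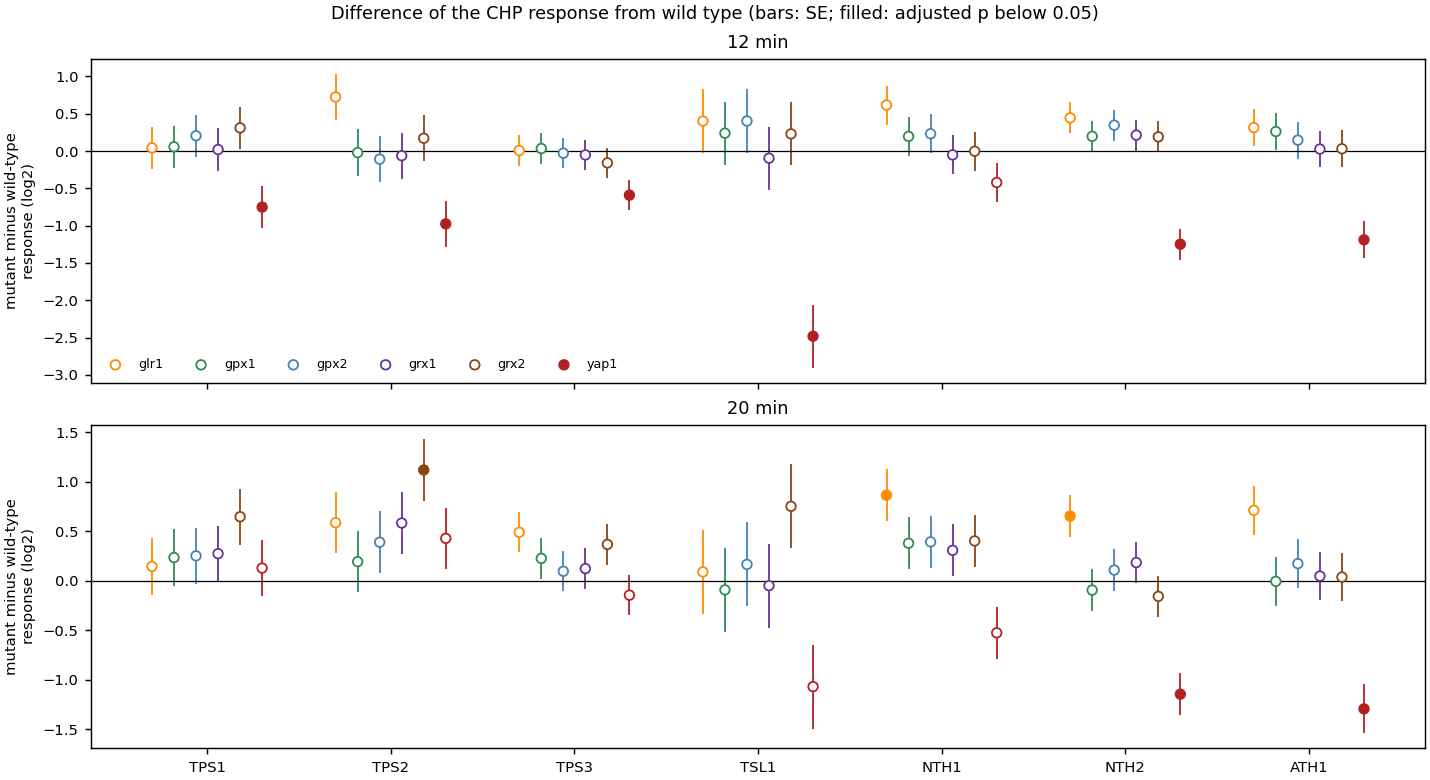
Response of each mutant minus the response of wild type for the 7 genes at 12 min (top) and 20 min (bottom) in log2 units, with 1 standard error as bars and filled points where the adjusted p was below 0.05. In the top panel the filled points belong to yap1 and reach -2.48 for TSL1, and in the bottom panel those above 0 are NTH1 and NTH2 in glr1 and TPS2 in grx2.

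Whether a mutant responded differently from wild type was tested on the difference itself, with 12 cultures and a standard error of 0.28 for TPS1, 0.31 for TPS2, 0.20 for TPS3, 0.42 for TSL1, 0.26 for NTH1, 0.21 for NTH2 and 0.25 for ATH1. All mutants were set against the same 6 wild-type cultures. In gpx1, gpx2 and grx1 the test called 0 of 84 differences, where it called 0.113% over all genes. That the test called none does not show that these strains responded alike, since the differences there ran as high as 0.58 for TPS2 in grx1 at 20 min (adjusted p 0.652).

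In grx2 the response of TPS2 at 20 min exceeded that of wild type by 1.12 (adjusted p 0.0037), the 1 of 7 genes called higher where 9.78% of all genes were. TPS2 read 10.83, 9.99 and 10.87 in CHP cultures of grx2, against 7.92, 8.50 and 8.28 in its control cultures, and the arms lay far apart. CHP replicate 2, the lowest of the 3, was the array farthest from its group, and the difference was called with and without it, and in 20 of 21 other settings in all. TPS1 (0.65, adjusted p 0.076), TSL1 (0.75, adjusted p 0.178) and TPS3 (0.37, adjusted p 0.172) did not pass. For TPS2 the CHP cultures averaged 10.56 in grx2 and 10.50 in wild type at 20 min. The control cultures averaged 8.23 in grx2 and 9.29 in wild type, so the difference of the responses lay mostly in the control cultures. Between 0 and 20 min TPS2 changed by 0.03 in grx2 controls and by 0.77 in wild-type controls, neither past the threshold.

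In glr1 the responses of NTH1 and NTH2 at 20 min exceeded those of wild type, by 0.86 (adjusted p 0.0333) and 0.65 (adjusted p 0.0454). This was 2 of 7 genes, where 3.04% of all genes were higher. NTH1 read 9.26, 9.96 and 9.82 in CHP cultures of glr1, against 7.87, 7.48 and 9.04 in its control cultures. NTH2 read 8.51, 8.49 and 8.36 in CHP cultures, against 7.93, 7.80 and 8.25 in control cultures. Neither pair of arms overlapped, but control replicate 3 stood well above the other 2 controls in both genes. Over all settings tried, NTH1 was called in 10 of 20, with values of 0.54 to 1.32, and NTH2 in 7 of 20, with values of 0.38 to 0.82. The lowest were 0.54 for NTH1 without control replicate 2 of glr1 (adjusted p 0.291) and 0.38 for NTH2 with the arm difference at 0 min subtracted (adjusted p 0.834). Without control replicate 3, TPS2 (1.07, adjusted p 0.009), TPS3 (0.72, adjusted p 0.012) and ATH1 (0.96, adjusted p 0.005) at 20 min were called too.

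In yap1 8 of 28 differences from wild type passed the threshold, where 13.6% did over all genes. At 12 min, when the synthesis genes had risen in wild type, none of them had risen in yap1 and TSL1 had fallen. TSL1 read 8.08, 7.70 and 8.00 in CHP cultures of yap1, against 8.74, 8.73 and 9.62 in its control cultures (-1.10, adjusted p 0.0021). The arms did not overlap, and the third control culture stood above the other 2. Without that culture the value was -0.81 (adjusted p 0.0623), and with the arm difference at 0 min subtracted it was -0.65 (adjusted p 0.314). TPS1 (-0.13), TPS2 (-0.01) and TPS3 (-0.13) were near 0 at this time, with overlapping arms.

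At 20 min the synthesis genes had risen in yap1 as well. TPS2 read 10.84, 10.59 and 10.62 in CHP cultures, against 9.12, 9.16 and 8.86 in control cultures (1.64, adjusted p 1.02e-10). TPS1 read 10.58, 10.48 and 10.53 in CHP cultures, against 9.09, 9.64 and 9.50 in control cultures (1.12, adjusted p 8.98e-07). CHP cultures lay above control cultures throughout. TPS3 rose by 0.54 (adjusted p 0.000953). TSL1 read 9.76, 9.61 and 9.52 in CHP cultures, against 8.74, 9.05 and 9.00 in control cultures, and its rise of 0.70 lay near the threshold (adjusted p 0.0477) and passed in 7 of 14 other settings. At 6 min TPS2 had fallen, with 8.40, 7.63 and 8.11 in CHP cultures against 9.14, 8.81 and 9.27 in control cultures (-1.03, adjusted p 0.000309).

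The trehalase genes of yap1 took another course. NTH2 read 7.22, 6.96 and 6.96 in CHP cultures at 12 min, against 8.11, 7.91 and 8.70 in control cultures (-1.19, adjusted p 8.65e-12). At 20 min it read 7.06, 6.87 and 6.82 in CHP cultures, against 8.10, 8.21 and 8.45 in control cultures (-1.33, adjusted p 2.04e-14). ATH1 read 5.74, 5.41 and 5.68 in CHP cultures at 20 min, against 6.64, 6.31 and 6.26 in control cultures (-0.79, adjusted p 6.2e-05), after -0.81 at 12 min. All CHP cultures lay below all control cultures in both genes at both times. NTH1 was -0.06 at 12 min and 0.16 at 20 min. At 6 min it read 7.79, 7.61 and 7.82 in CHP cultures, against 8.26, 8.14 and 8.31 in control cultures, and the arms did not overlap. This response of -0.49 lay just outside the threshold (adjusted p 0.0566) and passed with culture as a random block (adjusted p 0.0374), with the replicate block (adjusted p 0.0201), under quantile normalization (-0.56, adjusted p 0.0128) and with centred arrays (-0.46, adjusted p 0.0446).

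By count, 1 of the 7 genes was lower in yap1 at 6 min (7.58% of all genes), 3 at 12 min (16%) and 2 at 20 min (26.3%), and 4 were higher at 20 min (18.2%). The shares of lower genes at 6 and 20 min are close to those of the array as a whole.

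Against wild type, 6 of the 7 responses were lower in yap1 at 12 min, where 9.39% of all genes were, and the median of the 7 differences was -0.98 beside 0.05 for all genes. The largest was TSL1 (-2.48, adjusted p 9.13e-07), which combines a response of -1.10 in yap1 with 1.38 in wild type. NTH2 (-1.25, adjusted p 5.39e-07) and ATH1 (-1.19, adjusted p 6.1e-05) followed. TPS2 (-0.98, adjusted p 0.0133), TPS1 (-0.75, adjusted p 0.0424) and TPS3 (-0.59, adjusted p 0.0235) passed by less, and in 17, 11 and 15 of 20 other settings. Without control replicate 3 of yap1 these last were -0.84, -0.56 and -0.49 and did not pass (adjusted p 0.0559, 0.188 and 0.0773). Without CHP replicate 1 of wild type TPS1 was -0.62 (adjusted p 0.14) and TPS3 -0.50 (adjusted p 0.082). With the arm difference at 0 min subtracted, TPS2 was -0.81, TPS1 -1.11 and TPS3 -0.12, and none passed (adjusted p 0.294, 0.0644 and 0.9). NTH1 was -0.42 in the full fit (adjusted p 0.269).

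By 20 min 2 of the 7 differences remained past the threshold, NTH2 (-1.15, adjusted p 4.87e-06) and ATH1 (-1.29, adjusted p 1.29e-05), where 11.7% of all genes were lower. TPS1 (0.13), TPS2 (0.43) and TPS3 (-0.15) did not pass, and TSL1 lay just outside at -1.07 (adjusted p 0.0532). TSL1 passed in other settings, among them quantile normalization (adjusted p 0.0476), centred arrays (adjusted p 0.045) and the replicate block (adjusted p 0.0312). The differences of TSL1 at 12 min and of NTH2 and ATH1 at 12 and 20 min were called in every alternative setting run for them. At 6 min TPS2 lay just outside at -0.87 (adjusted p 0.0582). It passed in other settings, among them quantile normalization (-1.05, adjusted p 0.0178) and the replicate block (adjusted p 0.0378).

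**Figure D4:**
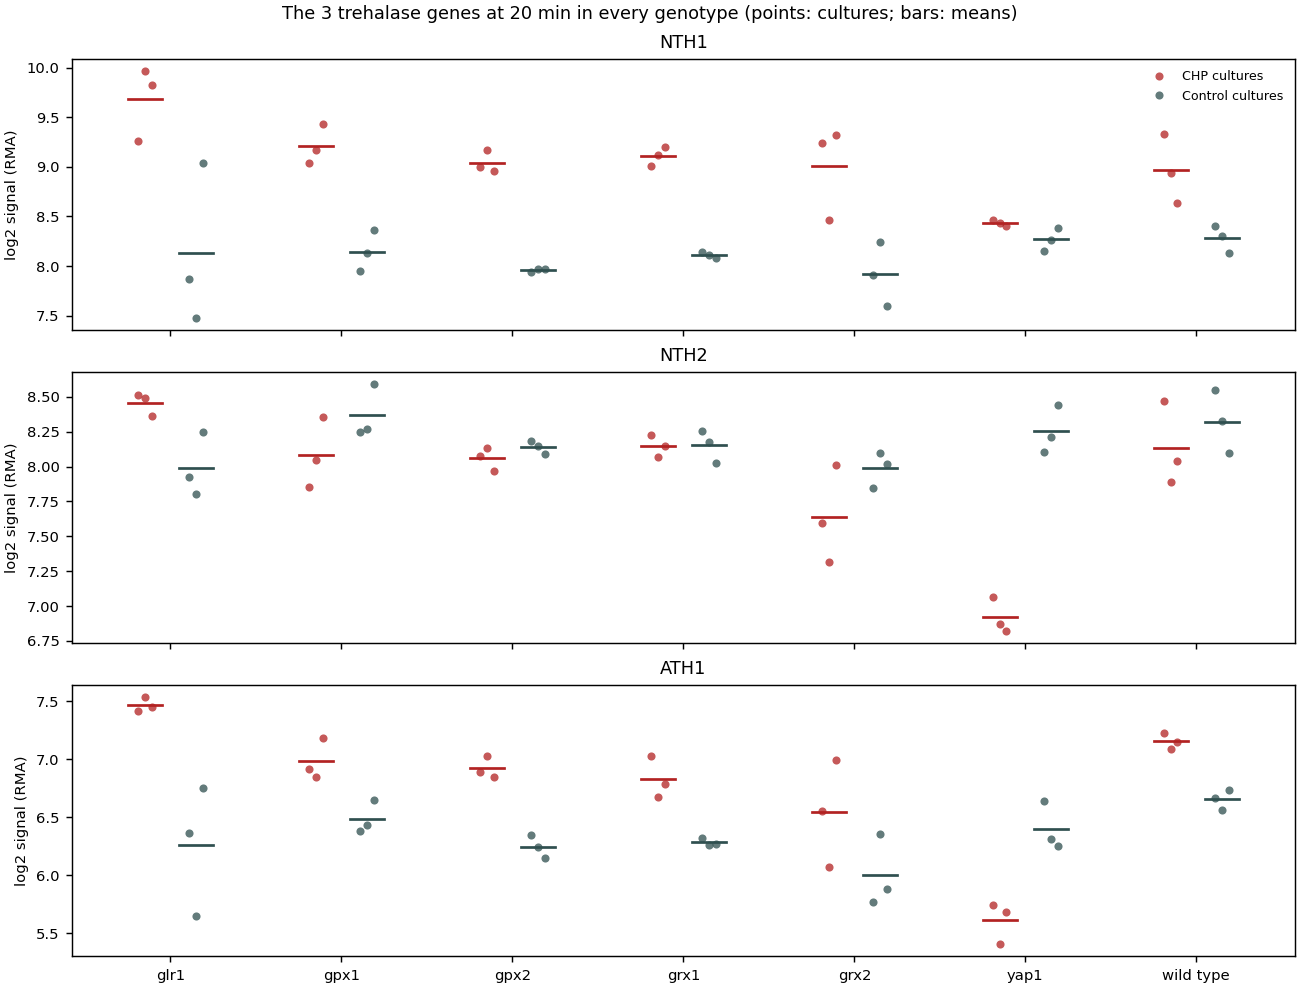
Signal of the 3 trehalase genes at 20 min in the 6 mutants and wild type in log2 units, with 1 point per culture, CHP cultures (red) left of control cultures (dark) and bars at the mean of 3. For NTH1 the arms lie close together in yap1, with 8.47, 8.43 and 8.40 in CHP cultures against 8.15, 8.27 and 8.38 in control cultures, and apart elsewhere. NTH2 is lower with CHP in yap1.

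Across the 28 combinations of genotype and time, the responses of the 4 synthesis genes and NTH1 were positively correlated with each other. The Pearson correlation ran from 0.84 between TPS3 and TSL1 to 0.93 between TPS1 and TPS3. It was 0.93 between TPS1 and TPS2, 0.90 between TPS1 and TSL1, 0.92 between TPS3 and NTH1 and 0.85 between TSL1 and NTH1. Such correlations were not summarised over all genes, so these values do not set the genes apart. The related trehalases NTH1 and NTH2 correlated at 0.17, and NTH2 and TPS1 at -0.07. ATH1 stood between them, at 0.80 with NTH1 and 0.69 with NTH2. Without the 4 combinations of yap1 the value for ATH1 with NTH1 was 0.92 and with NTH2 0.29 (n = 24), so the likeness of ATH1 to NTH2 rested on yap1. These are descriptions, since the points of a genotype share their cultures.

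Outside the pathway, the genes with the most similar responses over the 28 combinations were PMC1, YER079W and PHR1 for TPS1 (r 0.96 to 0.97), and PYK2, BXI1 and YAK1 for TPS2 (0.97 for each). For TPS3 they were DCS1, PMC1 and SDS22, and for TSL1 YLR345W, TPK2 and GID11, with TPK2, a catalytic subunit of protein kinase A, at 0.98. NTH1 was most similar to GSP2 (0.98), TFS1 and the polyubiquitin gene UBI4, and ATH1 to DBP1, the glycogen debranching enzyme gene GDB1 and ATG42. The nearest genes of NTH2 were less similar, at 0.90 for ULA1, 0.89 for PUF2 and 0.88 for PFK26.

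Before CHP, the 7 genes differed little between mutants and wild type, and all 6 differences that passed were lower in the mutant. This was 6 of 42, where 8.11% of all genes were lower. TPS2 averaged 8.19 ± 0.25 in gpx1, 8.11 ± 0.13 in gpx2 and 8.11 ± 0.20 in grx1, against 8.62 ± 0.33 in wild type (SD, n = 6 cultures each). The ranges of gpx1, gpx2 and grx1 overlapped that of wild type, and the adjusted p-values were 0.0273, 0.0149 and 0.0119. NTH2 was lower in gpx2 (-0.31, adjusted p 0.0264) and grx2 (-0.29, adjusted p 0.029), and ATH1 in gpx2 (-0.33, adjusted p 0.0453). Without wild-type control replicate 3 the count fell to 2. Between the arms at 0 min 0 of 49 differences passed, where 0.929% did over all genes. That share was not even over the genotypes, with 0 of 5656 genes called in wild type and 0 in glr1. The arms of the 7 genes were least alike in yap1. There TSL1 was -0.45 (adjusted p 0.343), TPS1 0.38 (adjusted p 0.226) and TPS3 -0.29 (adjusted p 0.192). In the other genotypes every adjusted p of the 7 genes was at least 0.999. In the limma fit an unadjusted p of 0.136 for TSL1 in yap1 became 0.343 after adjustment, and 0.132 for TPS2 in gpx1 became 0.999. Low p-values over all genes were therefore more frequent between the arms of yap1 than between those of gpx1. Control replicate 1 of yap1 at 0 min was among the arrays farthest from the mean of their group.

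In the control cultures, 3 of 49 changes between 0 and 20 min passed, all upward, where 0.96% of all genes did. They were TPS2 (0.85, adjusted p 0.012) and TSL1 (0.98, adjusted p 0.0351) in glr1 and NTH1 in yap1 (0.61, adjusted p 0.0427). Both glr1 values rested on control replicate 3, without which they were 0.35 and 0.51 (adjusted p 0.834 and 0.818). Without control replicate 1 of yap1, the NTH1 value was 0.38 (adjusted p 0.9997). Over the 7 genotypes, the change of TSL1 in control cultures ran from 0.02 to 0.99 and that of TPS2 from 0.03 to 0.85. The median of the 49 changes was 0.33, beside 0.02 for all genes. Both times come from the same cultures, which the main fit does not pair. With culture as a random block TPS1 and NTH1 in glr1 passed as well (adjusted p 0.00723 and 0.0254). So did TPS2, NTH2 and ATH1 in yap1 (adjusted p 0.0246, 0.0103 and 0.0297). The responses are set against control cultures of the same time.

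Genes that supply or compete for the substrates of trehalose synthesis responded to different degrees. Of 6 genes for the supply of glucose 6-phosphate and UDP-glucose, 1 rose in wild type at 20 min, UGP1 (0.41, adjusted p 0.0114), the pyrophosphorylase that makes UDP-glucose, and 0 fell, where 16.7% of all genes rose and 21.9% fell. In yap1 at 12 min 0 of the 6 rose and 2 fell, UGP1 (-1.24) and the phosphoglucomutase gene PGM2 (-2.11), where 13.3% of all genes rose and 16% fell. In wild type at 12 min 0 rose and 0 fell, where 10.7% of all genes rose and 19.5% fell. At 20 min 1 rose and 1 fell in yap1, where 18.2% of all genes rose and 26.3% fell. PGM2 is outside the rule for naming genes and was chosen after its values were seen.

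Glycogen synthesis draws on the same UDP-glucose. At 20 min 7 of 7 glycogen genes fell in yap1, where 26.3% of all genes fell, while in wild type 3 rose and 1 fell, where 16.7% rose and 21.9% fell over all genes. GDB1, the debranching enzyme, was -1.38 in yap1 and 0.81 in wild type, the phosphorylase gene GPH1 was -1.91 in yap1 and 0.77 in wild type, and the branching enzyme gene GLC3 was -0.86 in yap1 and 0.74 in wild type. GLG2, a glycogenin, fell in both, at -0.68 in yap1 and -0.66 in wild type. The 7 genes had also all fallen in yap1 at 12 min, with -3.60 for the glycogen synthase gene GSY1, which was named after its values were seen. In contrast to TPS1 and TPS2, which had risen in yap1 at 20 min, no gene of the glycogen list had.

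Of 16 genes for protein kinase A, 14-3-3 proteins and other regulators, 15 were measured. At 20 min 3 were higher and 3 lower in yap1 (18.2% and 26.3% of all genes), while in wild type 6 rose and 1 fell (16.7% and 21.9%). DCS2 rose by 0.70 in yap1 and 1.63 in wild type, and DCS1, which encodes an inhibitor of neutral trehalase, by 0.69 in yap1 and 1.16 in wild type. TPK2 rose by 0.87 and YAP1 by 0.92 in wild type. The lower gene in wild type was MSN4, which encodes a general stress transcription factor. It had -2.00 in yap1 and -0.81 in wild type, and it was named after its values were seen. MAL11, a transporter of maltose and trehalose, fell in both, with -1.64 in yap1 and -0.55 in wild type.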

How the data were processed

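RNA of 210 samples was hybridized to Affymetrix Yeast Genome S98 arrays. Per the submitters' processing notes the authors deposited log2 values made with RMA, with version and settings not given in the sources used here. Raw array files were not analysed. Of 9335 probe sets 6504 name 1 gene. For 315 genes with several, the probe set with the highest mean was kept, leaving 5656 genes. No count or depth underlies these values, and the number of arrays limits the precision.

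Responses, differences of responses, mutants against wild type at 0 min, arms at 0 min and the change in control cultures were computed from these log2 values and tested in limma (version 3.58.1, under R 4.3.3). The fit had 70 group means and 140 residual degrees of freedom. Benjamini-Hochberg adjustment ran over all genes, and the threshold was 0.05. Systematic names come from the RefSeq annotation. It treats the 5 arrays of a culture as independent, although their correlation was 0.264. The pipeline was tested on simulated data.

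All 7 members are named in every comparison. Of other lists, up to 4 genes with the largest wild-type response at 20 min are named, and for each member the 3 genes with the highest correlation. Members and lists were chosen with earlier results of these data known. Alternatives were quantile normalization, centring on array medians, culture as a random block, a replicate block, the probe set with the lowest mean, the dimmest 25% of genes left out, subtraction of the arm difference at 0 min, fits on the genotypes compared only, the 20 min array of grx2 CHP replicate 2 left out, and each culture left out in turn. Replicate numbers did not pair the cultures. Of 21 pairs of same-numbered CHP and control cultures 12 had a correlation over 0.1, and 0 genotypes had all of theirs over it. Cultures of the arms were still related in glr1, wild type and grx2. CHP replicate 1 correlated with control replicates 1, 2 and 3 at 0.70, 0.71 and -0.78 in glr1. The values were 0.49, 0.54 and -0.70 in wild type and 0.44, 0.55 and -0.71 in grx2. In these genotypes CHP replicates 2 and 3 correlated positively with control replicate 3. The fit does not model this pattern, and its origin was not tested.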

Additional observations from a re-analysis of the deposited data

Results flagged for a closer look

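In 49 groups of 6 cultures at 0 min, 1 group for each gene and genotype, 6 values stood far from the other 5. For a single group chance gives this about 1 time in 20. The 7 genes share arrays, so the groups are not independent and that rate is no yardstick for the count. In control replicate 1 of yap1, 4 of the 7 genes were low. TPS1 read 8.56 there, against 9.19 to 9.47 in the other yap1 cultures, NTH1 7.10 against 7.72 to 7.98, NTH2 7.35 against 7.99 to 8.14, and ATH1 5.27 against 6.06 to 6.41. The remaining values were NTH2 in CHP replicate 2 of glr1 (8.21, against 8.02 to 8.07) and NTH2 in control replicate 3 of gpx2 (7.73, against 7.89 to 7.95).

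Of 168 differences between a mutant's response and that of wild type, 11 passed the threshold. Those of yap1 at 12 min were TPS1 (-0.75), TPS2 (-0.98), TPS3 (-0.59), TSL1 (-2.48), NTH2 (-1.25) and ATH1 (-1.19), and those of yap1 at 20 min NTH2 (-1.15) and ATH1 (-1.29). In glr1 they were NTH1 (0.86) and NTH2 (0.65) at 20 min, and in grx2 TPS2 (1.12) at 20 min.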

How the results depend on the processing

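The number of responses of the 7 genes past the threshold was 15 in glr1, 12 in gpx1, 13 in gpx2, 10 in grx1, 11 in grx2, 10 in yap1 and 10 in wild type, of 28 each. Subtracting the arm difference at 0 min gave 6 in gpx1, 6 in grx1 and 6 in wild type, and for differences from wild type 0 in glr1 against 2, 0 in grx2 against 1 and 5 in yap1 against 8. The glr1 count was 1 under quantile normalization, 1 with centred arrays and 0 with the genotypes compared only. The grx2 count was 2 with centred arrays, with the replicate block and without the 20 min array of CHP replicate 2. The count of changes in control cultures, 3, was 5 under quantile normalization, 5 with the replicate block, 8 with culture as a random block and 10 with the genotypes compared only. With 1 culture left out, the differences called ranged from 0 to 7 in glr1, from 1 to 4 in grx2 and from 5 to 10 in yap1, the differences before CHP from 2 to 9 (6 in the full fit), the arm differences at 0 min from 0 to 1 (0 in the full fit) and the changes in control cultures from 1 to 6. The highest glr1 count came without its control replicate 3, the highest grx2 count without its control replicate 2, the lowest yap1 count without its control replicate 3, and the lowest count before CHP without wild-type control replicate 3. The change of TSL1 in grx2 control cultures between 0 and 20 min, 0.09, ran from -0.95 to 0.78 with 1 culture left out. The lowest came without control replicate 2 (adjusted p 0.0315), whose TSL1 signal at 0 min was 6.63 against 9.23 and 8.95. Of all gene-level values recomputed, 7945 kept their side of the threshold, 161 lost and 125 gained a call, and 1 changed direction. Centring or quantile normalization moved the median response of all genes by over 0.1 in 5 of 28 comparisons, at most by 0.18. Where a setting did not itself remove samples, the cause was not tested.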
